A study of Homo sapiens with 18 samples.

Results

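The genes described here are 40 genes of the lysosome: the transcription factors of the MiT/TFE family, lysosomal membrane proteins, the enzymes and lipid-binding proteins of the lumen, and subunits of the proton pump. Each was represented by the brightest of the probe sets that name that gene and no other, judged by the mean over all 18 arrays. Such a probe set was found for 39 of the 40, among 19775 genes on the array that have one and 54675 probe sets in all. GLB1, the lysosomal beta-galactosidase, was read only by a probe set that also names TMPPE and was left out of every count.

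Expression was measured on microarrays in K562, a human chronic myeloid leukemia cell line, after retroviral transduction with vectors that carry CALRwt, CALRdel52 or CALRins5 beside the selection marker NGFR. CALR encodes calreticulin, a chaperone of the endoplasmic reticulum, and del52 and ins5 are mutations found in myeloproliferative neoplasms. For each vector there were 3 arrays of untreated cells and 3 of cells exposed to Melittin (MEL), the main toxin of bee venom, at 5 μg/mL for 24 h. The design asks what MEL, which was used to provoke oxidative stress, does to expression, and whether the cells with a mutated vector (CALRdel52 and CALRins5 together) differ from CALRwt cells.

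All 6 groups were transduced cells of the same line, purified by NGFR, so comparisons were between treatments or vectors and none was with untransduced cells. K562 cells also carry their own CALR alleles. The CALR probe set does not tell the vectors apart from the endogenous gene. Its untreated means were 5.80 ± 0.05 (SD, n = 3) with CALRwt, 6.20 ± 0.18 with CALRdel52 and 6.21 ± 0.06 with CALRins5, and the mutated against CALRwt difference did not pass the test (limma adjusted p = 0.448). How long the untreated cells were cultured differs between the sources. If those cells were taken directly after sorting, every MEL against untreated difference also includes 24 h of culture. Culture and MEL could then not be told apart. The sources used here do not say whether the MEL replicates were separate cultures. If they were not, the p-values cover no more than the spread among these arrays, which could be technical.

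Values are log2 RMA expression levels, so a difference of 1 is a change of 2-fold. A gene was called when its Benjamini-Hochberg adjusted p, taken over all 54675 probe sets in limma, was under 0.05. The median of an array lay between 4.56 and 4.60 for untreated cells, and between 4.60 and 4.66 for MEL. RNA quality moved with MEL: the GAPDH 3' minus 5' control difference, which grows as RNA degrades or labelling shortens, was 0.31 to 0.41 in the 9 untreated arrays and 0.42 to 1.33 in the 9 MEL arrays. CALRins5 MEL replicate 1 had the highest value, and the lowest median correlation to the rest, 0.989, was that of CALRdel52 MEL replicate 3, so results were also computed without these arrays and with the GAPDH difference as a covariate. The GAPDH difference did not overlap between treatments, so the covariate model separates RNA quality from MEL only in part. Beyond these values the part of RNA quality in the results was not tested. Of the K562 markers 10 of 10 measured lay above the median probe set. Their list means were 9.85 to 9.95 in untreated and 9.79 to 9.97 in MEL arrays. With MEL over the 3 vectors 7 of the 10 were called, 3 higher and 4 lower. Of all genes 36.7% were called, and of those with a mean of 8 or more 55.3%. Of 11 markers of other blood cells 5 lay above the median probe set, CD3D (mean 8.88 untreated and 8.87 with MEL), CD3E, CD79A, ITGAM and NCAM1. The list means of the 11 were 4.48 to 4.64 untreated and 4.50 to 4.67 with MEL, and none was called with MEL over the 3 vectors. Marker means ran from 7.3 to 12.33 for K562 and from 2.97 to 8.87 for the others, so the called counts were taken at unlike levels.

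Lysosomes break down proteins, lipids, glycans and nucleic acids with hydrolases that work at acid pH. The vacuolar proton pump acidifies them: its cytosolic V1 sector burns ATP and its membrane V0 sector carries the protons across. TFEB, TFE3 and MITF bind E-box-like sites in the promoters of many of these genes, and the kinase mTORC1, which sits on the lysosome surface when nutrients are plentiful, keeps them in the cytoplasm by phosphorylation, so that their activity is set largely by location and not by transcript level.

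The sites known for this regulation are shown because the transcription factors and their classical targets are members. RefSeq promoter windows (GRCh38.p14, from 250 bases before the start to 50 after it) were at hand for 30 of the 40 genes. LAMP2, CTSB, HEXA, ASAH1, PSAP, ATP6V0E1, ATP6V1A, ATP6V1B2, ATP6V1C1 and ATP6V1H had no window and were not searched. All of these but LAMP2 and ATP6V1B2 were called with MEL over the 3 vectors. TCACGTGA, the core of the CLEAR element, lay in the windows of 6 of the 30 genes with a window (20%), against 1.18% of all 27305 genes in the table. It is its own reverse complement, so both strands are read at once, and it contains the shorter TCACGTG (9 of 30 members, 30%, against 4.49%) and the E-box CACGTG (10 of 30, 33.3%, against 8.77%). TCACATGA, the M-box, was in the windows of 3 of 30 members (10%, against 1.24%) on either strand and does not overlap in letters with the E-box. The members include classical targets of these transcription factors, so their larger shares follow in part from how the list was chosen. A match is a description of these letters and was not tested for binding. Each line gives 40 bases, 5′ to 3′ on the strand of the gene, with the motif in capitals. The genes are those with TCACGTGA or TCACATGA, chosen because they hold it, and only MCOLN1 and ATP6V0D1 were selected as called genes with the CLEAR core.
MCOLN1, chr19:7522566-7522605, plus strand, 42 bases before the start: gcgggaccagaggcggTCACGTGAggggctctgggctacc
MCOLN1, chr19:7522593-7522632, plus strand, 15 bases before the start: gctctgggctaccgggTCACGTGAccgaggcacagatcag
ATP6V0D1, chr16:67481194-67481233, minus strand, 60 bases before the start: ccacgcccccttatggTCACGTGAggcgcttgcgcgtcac
ATP6V1G1, chr9:114587694-114587733, plus strand, 59 bases before the start: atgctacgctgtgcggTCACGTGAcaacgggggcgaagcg
LAMP1, chr13:113297194-113297233, plus strand, 29 bases before the start: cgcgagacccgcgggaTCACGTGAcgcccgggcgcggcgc
GAA, chr17:80101488-80101527, plus strand, 77 bases before the start: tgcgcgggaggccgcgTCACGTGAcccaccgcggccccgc
CTSA, chr20:45891293-45891332, plus strand, 26 bases before the start: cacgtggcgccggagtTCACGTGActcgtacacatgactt
TPP1, chr11:6619420-6619459, minus strand, 21 bases before the start: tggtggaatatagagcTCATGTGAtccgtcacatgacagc
CD63, chr12:55729089-55729128, minus strand, 103 bases before the start: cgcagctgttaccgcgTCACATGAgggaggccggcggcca
PPT1, chr1:40097233-40097272, minus strand, 4 bases before the start: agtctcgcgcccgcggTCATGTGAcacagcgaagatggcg
MCOLN1, LAMP1 and GAA hold the CLEAR core at 2 places each, and TPP1 holds the M-box at 2 places, the other 12 bases nearer to its start on the opposite strand. TCATGTGA is the M-box read on the other strand.

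Upon MEL exposure 22 of the 39 genes were called over the 3 vectors, 12 higher and 10 lower (56.4%), where 33.7% of all probe sets (17.1% higher and 16.6% lower) and 36.7% of genes with 1 probe set each (18.6% and 18.1%) were called. Members are bright on the array, with 30 of 39 at a mean of 8 or more. Among all genes at that level 55.3% were called, against 18 of these 30 members (60%), so the share of called members was near that of equally bright genes. Among those bright genes 18% were higher and 37.3% lower, and among the 30 members 9 were higher and 9 lower. The median change was 0.07 over the members and 0.04 over all probe sets. In bulk samples fewer cells of a kind and less RNA per cell cannot be told apart. With the GAPDH control difference as a covariate 14 members were called, 8 higher and 6 lower. With quantile normalization repeated, 23 were called, 18 higher and 5 lower, so the split between directions depended on the scaling. The median of all probe sets then changed by 0.01 and that of the members by 0.14.

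**Figure D1:**
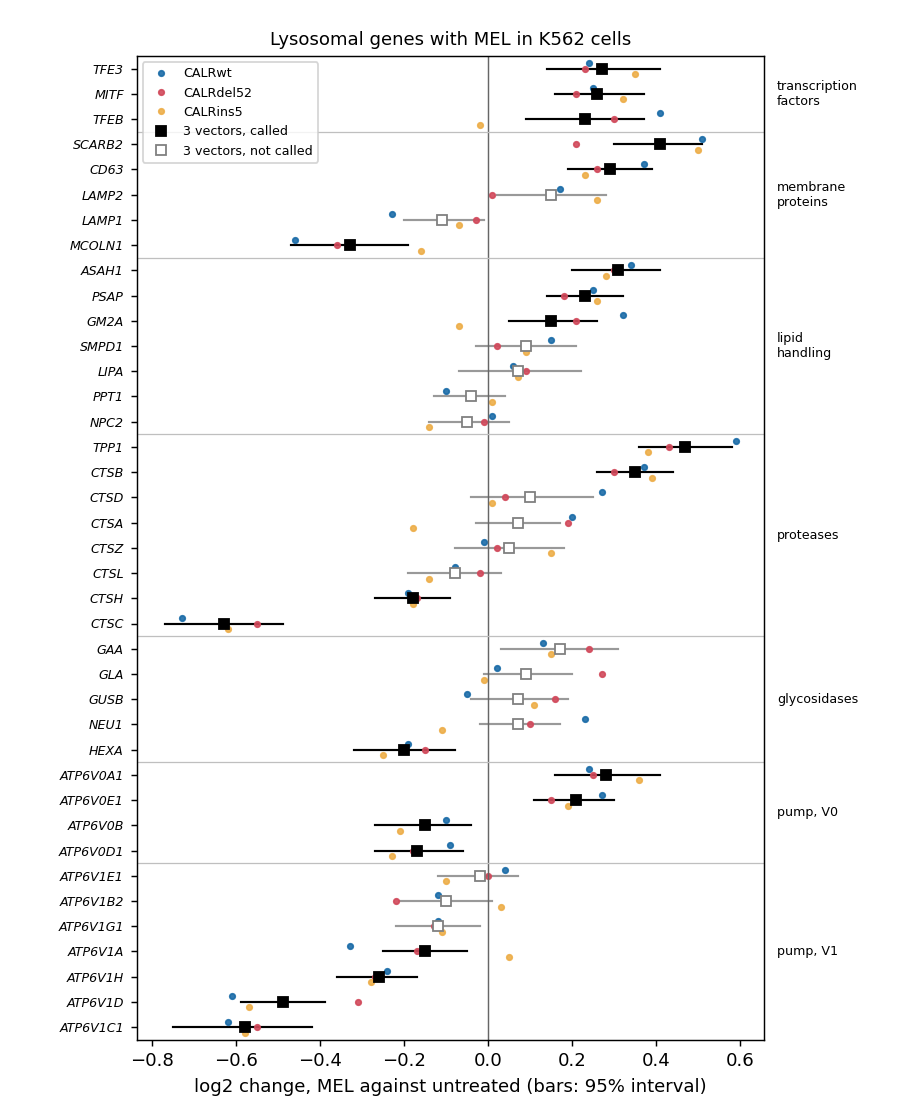
Log2 change with MEL (horizontal axis) of the 39 lysosomal genes (vertical axis) by role. Squares are the change over the 3 vectors with its 95% interval, filled where called, and dots are each vector. The changes run from −0.63 for CTSC to 0.47 for TPP1, and all 7 V1 squares lie below 0.

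The 3 transcription factors all rose with MEL over the 3 vectors, by 0.23 to 0.27. TFEB, a master regulator of lysosome formation and autophagy, read 5.24, 5.50 and 5.27 in untreated CALRwt arrays and 5.58, 5.79 and 5.87 with MEL. CALRdel52 values were 5.22, 5.49 and 5.20 untreated and 5.38, 5.60 and 5.81 with MEL. CALRins5 values were 5.52, 5.52 and 5.48 untreated and 5.39, 5.60 and 5.48 with MEL. MEL arrays were thus all above the untreated arrays in CALRwt cells and overlapped with them in CALRdel52 and CALRins5 cells. The change over the vectors was 0.23 (standard error 0.07, adjusted p = 0.0138). In CALRwt cells it was 0.41 (adjusted p = 0.0232), and in CALRins5 cells −0.02 (adjusted p = 0.948). The second TFEB probe set changed by 0.01 (adjusted p = 0.933), and the mean of both gave 0.12 (adjusted p = 0.136).

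TFE3, the close relative of TFEB, read 9.21, 9.35 and 9.16 in untreated CALRwt arrays and 9.42, 9.54 and 9.50 with MEL. CALRdel52 values were 9.35, 9.33 and 9.15 untreated and 9.54, 9.64 and 9.35 with MEL. CALRins5 values were 9.22, 9.25 and 8.86 untreated and 9.38, 9.53 and 9.46 with MEL. In each vector the MEL arrays were above the untreated arrays, in CALRdel52 cells by less than the rounding shown. TFE3 rose by 0.27 (standard error 0.06, adjusted p = 0.00221). Another TFE3 probe set was called higher by 0.45, but a dimmer probe set was called lower, at −0.52, and the mean of all its probe sets changed by 0.07 (adjusted p = 0.419).

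MITF, which drives the melanocyte and mast cell programmes beside lysosomal genes, read 8.77, 8.63 and 8.61 in untreated CALRwt arrays and 9.0, 8.93 and 8.83 with MEL. CALRdel52 values were 8.85, 8.77 and 8.74 untreated and 9.05, 8.91 and 9.04 with MEL. CALRins5 values were 8.66, 8.61 and 8.65 untreated and 9.13, 8.85 and 8.91 with MEL. MEL and untreated arrays did not overlap within any vector. MITF rose by 0.26 (standard error 0.05, adjusted p = 5.6e-04), and its 3 probe sets were all called higher. With the GAPDH covariate its change was 0.17 (adjusted p = 0.0656). Within single vectors TFEB was called in CALRwt cells only, TFE3 and MITF in CALRins5 cells only, and the differences in response between vectors did not pass for any of them.

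**Figure D2:**
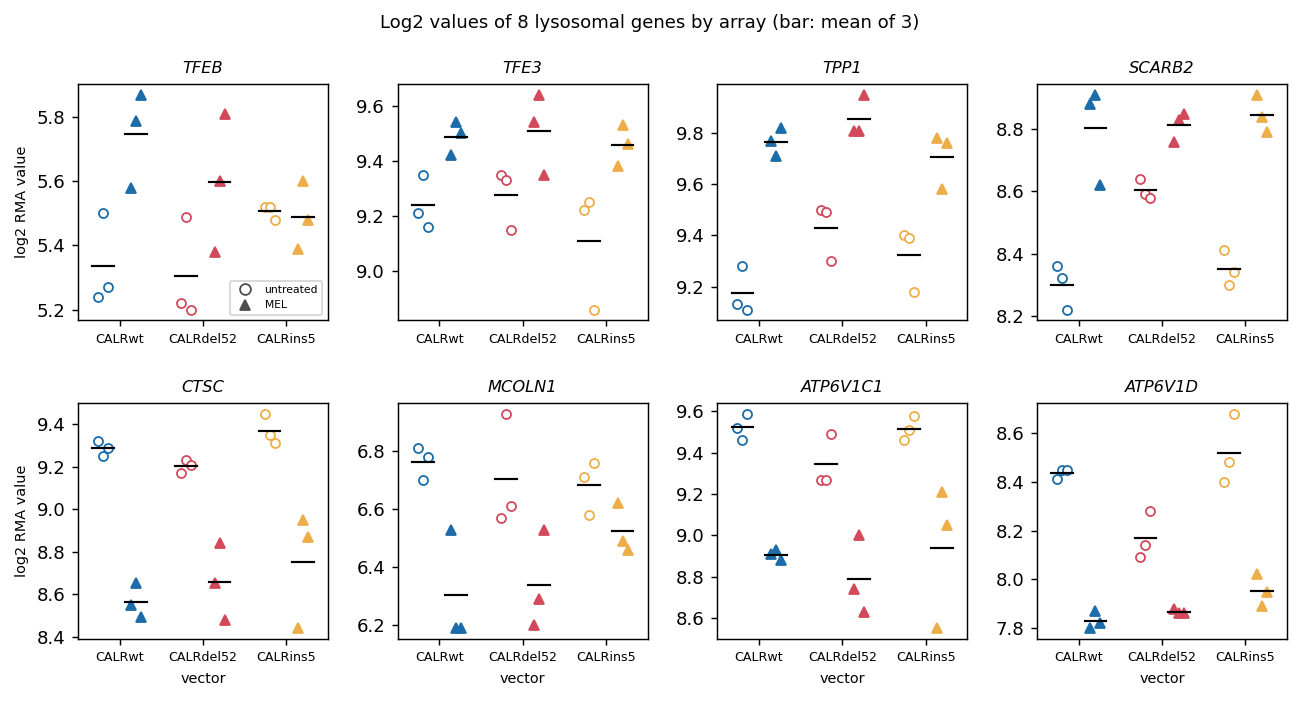
Log2 RMA value (vertical axis) of 8 lysosomal genes in each of the 18 arrays by vector (horizontal axis), with circles for untreated cells, triangles for MEL and bars for means of 3. TFEB overlaps between treatments in CALRins5 cells, whereas for TPP1 all 9 triangles lie above all 9 circles and for CTSC, ATP6V1C1 and ATP6V1D all lie below.

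Among the 5 membrane proteins SCARB2 and CD63 rose, MCOLN1 fell, and LAMP1 and LAMP2 did not pass. SCARB2 (LIMP-2), which carries glucocerebrosidase to the lysosome, read 8.36, 8.32 and 8.22 in untreated CALRwt arrays and 8.88, 8.91 and 8.62 with MEL. CALRdel52 values were 8.64, 8.59 and 8.58 untreated and 8.76, 8.83 and 8.85 with MEL. CALRins5 values were 8.41, 8.30 and 8.34 untreated and 8.91, 8.84 and 8.79 with MEL. Treatments were apart in each vector, and untreated CALRdel52 arrays were the highest of the untreated. SCARB2 rose by 0.41 (standard error 0.05, adjusted p = 6.7e-06), to 1.32 times its untreated level. Of its 3 other probe sets, all dimmer, 1 was called higher (0.30) and 2 were not called (−0.08 and −0.21), and the mean of all 4 changed by 0.11 (adjusted p = 0.0956).

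CD63, a tetraspanin of late endosomes and lysosomes with an M-box before its start, read 11.05, 11.07 and 11.20 in untreated CALRwt arrays and 11.49, 11.48 and 11.46 with MEL. CALRdel52 values were 11.23, 11.44 and 11.27 untreated and 11.62, 11.55 and 11.56 with MEL. CALRins5 values were 11.11, 11.14 and 11.21 untreated and 11.46, 11.38 and 11.32 with MEL. Within each vector every MEL array was the higher, and over all arrays only untreated CALRdel52 replicate 2 reached into the MEL range. CD63, which has a single probe set, rose by 0.29 (standard error 0.05, adjusted p = 9.4e-05), and was called under every alternative setting that was run.

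MCOLN1, the calcium channel TRPML1 of the lysosome membrane and a classical TFEB target with 2 CLEAR cores before its start, moved the other way from the transcription factors. It read 6.81, 6.70 and 6.78 in untreated CALRwt arrays and 6.53, 6.19 and 6.19 with MEL. CALRdel52 values were 6.57, 6.93 and 6.61 untreated and 6.20, 6.29 and 6.53 with MEL. CALRins5 values were 6.71, 6.58 and 6.76 untreated and 6.62, 6.49 and 6.46 with MEL. The treatments were apart in CALRwt and CALRdel52 cells and overlapped in CALRins5 cells. MCOLN1 fell by 0.33 (standard error 0.07, adjusted p = 0.00103), to 0.796 times its untreated level, and this call also held under every alternative setting. LAMP1 and LAMP2, the heavily glycosylated proteins that line the lysosome membrane, changed by −0.11 (adjusted p = 0.0776) and 0.15 (adjusted p = 0.0757). Their dimmer probe sets gave larger values: 3 of LAMP1 were called lower (−0.20 to −0.44) and 1 of LAMP2 was called higher (0.60).

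Of the 7 genes of lipid and cholesterol handling 3 rose and none fell, and the median change was 0.09. ASAH1, the acid ceramidase, read 10.39, 10.28 and 10.43 in untreated CALRwt arrays and 10.79, 10.66 and 10.65 with MEL. CALRdel52 values were 10.69, 10.55 and 10.51 untreated and 10.91, 10.84 and 10.90 with MEL. CALRins5 values were 10.46, 10.54 and 10.62 untreated and 10.95, 10.79 and 10.73 with MEL. MEL arrays were higher than untreated arrays in each vector without overlap. The change of 0.31 (standard error 0.05, adjusted p = 1.0e-04) came from a probe set prone to cross-hybridisation. Its brightest probe set without that mark changed by 0.07 (adjusted p = 0.557), another was called lower at −0.39, and the dimmest was called higher at 0.25.

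PSAP, the precursor of the saposins that present sphingolipids to their hydrolases, rose by 0.23 (standard error 0.04, adjusted p = 3.8e-04), with untreated arrays at 10.55 to 10.88 and MEL arrays at 10.85 to 11.05. Its second probe set changed by −0.06 (adjusted p = 0.612), and the mean of both by 0.09 (adjusted p = 0.118). GM2A, the activator protein of GM2 ganglioside breakdown, rose by 0.15 (standard error 0.05, adjusted p = 0.0185), but of its 6 other probe sets 2 were called lower (−0.38 and −0.47) and 1 higher (0.24). GM2A was not called with arrays centred on their medians, with the GAPDH covariate (0.11, adjusted p = 0.267) or without both arrays that stood apart (0.13, adjusted p = 0.0626). SMPD1 (acid sphingomyelinase, 0.09), LIPA (lysosomal acid lipase, 0.07), PPT1 (palmitoyl-protein thioesterase, −0.04) and NPC2 (luminal cholesterol carrier, −0.05) did not pass. LIPA was the only member whose mean, 3.58, lay under the median of all probe sets, 4.61, so it may not have been detected. Only 1 of the 3 other probe sets of SMPD1 was called, lower by 0.21.

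The 8 proteases split, with TPP1 and CTSB higher and CTSC and CTSH lower. TPP1, a tripeptidyl peptidase with 2 M-boxes before its start, read 9.13, 9.28 and 9.11 in untreated CALRwt arrays and 9.77, 9.71 and 9.82 with MEL. CALRdel52 values were 9.50, 9.49 and 9.30 untreated and 9.81, 9.81 and 9.95 with MEL. CALRins5 values were 9.40, 9.39 and 9.18 untreated and 9.78, 9.58 and 9.76 with MEL. It was the only member with all 9 MEL arrays above all 9 untreated arrays. TPP1 rose by 0.47 (standard error 0.05, adjusted p = 3.2e-06), to 1.38 times its untreated level. A dimmer TPP1 probe set was also called higher (0.17) and another was called lower (−0.59). The mean of all 4 changed by 0.03 (adjusted p = 0.571). The only TPP1 probe set without a mark for cross-hybridisation, at a mean of 5.69, changed by 0.09 (limma adjusted p = 0.347).

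CTSB, the cysteine protease cathepsin B, read 9.67, 9.66 and 9.67 in untreated CALRwt arrays and 9.94, 10.11 and 10.05 with MEL. CALRdel52 values were 9.87, 9.96 and 9.86 untreated and 10.20, 10.16 and 10.21 with MEL. CALRins5 values were 9.71, 9.61 and 9.59 untreated and 10.11, 9.97 and 10.00 with MEL. Untreated and MEL arrays were apart in each vector, and CALRdel52 arrays were the highest in both treatments. CTSB rose by 0.35 (standard error 0.04, adjusted p = 8.8e-06), and 4 of its 5 probe sets were called higher, with none lower.

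CTSC, the dipeptidyl peptidase that activates the serine proteases of leukocyte granules, had the largest decrease of the members. Untreated CALRwt arrays read 9.32, 9.25 and 9.29 and MEL arrays 8.55, 8.65 and 8.49. CALRdel52 values were 9.17, 9.23 and 9.21 untreated and 8.65, 8.84 and 8.48 with MEL. CALRins5 values were 9.45, 9.35 and 9.31 untreated and 8.44, 8.95 and 8.87 with MEL. All 9 MEL arrays were below all 9 untreated arrays, and CALRins5 MEL replicate 1, the array with the highest GAPDH control difference, was the lowest. CTSC fell by 0.63 (standard error 0.07, adjusted p = 1.3e-06), to 0.646 times its untreated level. With the GAPDH covariate the change was −0.44 (adjusted p = 1.1e-04) and without both arrays that stood apart −0.55 (adjusted p = 8.6e-07). Of its 3 other probe sets 2 were called lower (−0.30 and −0.38).

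CTSH, cathepsin H, fell by 0.18 (standard error 0.04, adjusted p = 0.00296). Its MEL arrays, at 10.20 to 10.32, were all below the untreated arrays, at 10.34 to 10.54. With quantile normalization repeated, CTSH changed by −0.10 and was not called (adjusted p = 0.0619). CTSA (protective protein, 0.07), CTSD (the aspartic protease cathepsin D, 0.10), CTSL (cathepsin L, −0.08) and CTSZ (cathepsin Z, 0.05) did not pass. CTSA and CTSD hold the CLEAR core and TCACGTG, respectively, and neither was called in any single vector. The small change of CTSA averages opposite directions. Its MEL arrays lay above the untreated arrays in CALRwt and CALRdel52 cells and below them in CALRins5 cells. The difference in response of CTSA, CALRins5 minus CALRdel52, was −0.37 and did not pass (limma adjusted p = 0.533).

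HEXA, the alpha subunit of beta-hexosaminidase, was the only called gene among 5 glycosidases. It read 9.0, 9.08 and 9.17 in untreated CALRwt arrays and 8.88, 8.93 and 8.85 with MEL. CALRdel52 values were 8.99, 9.16 and 9.26 untreated and 8.99, 9.08 and 8.88 with MEL. CALRins5 values were 9.11, 9.30 and 9.37 untreated and 8.88, 9.09 and 9.07 with MEL. The treatments overlapped in CALRdel52 cells. HEXA fell by 0.20 (standard error 0.06, adjusted p = 0.0114), but was not called with quantile normalization (−0.12, adjusted p = 0.121) or the GAPDH covariate (−0.11, adjusted p = 0.324). The mean of its 4 probe sets changed by 0.01, and a dim probe set was called higher (0.24). The brightest HEXA probe set without a mark for cross-hybridisation, at a mean of 5.14, changed by −0.14 (limma adjusted p = 0.166). GAA (acid alpha-glucosidase, 0.17, adjusted p = 0.0542), GLA (alpha-galactosidase A, 0.09), GUSB (beta-glucuronidase, 0.07) and NEU1 (sialidase, 0.07) did not pass, although with quantile normalization all 4 were called higher.

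Of the proton pump, all 4 subunits of V0 were called, ATP6V0A1 and ATP6V0E1 higher and ATP6V0B and ATP6V0D1 lower. ATP6V0A1, the large subunit along which the protons pass, read 7.77, 7.88 and 7.64 in untreated CALRwt arrays and 8.03, 7.96 and 8.01 with MEL. CALRdel52 values were 7.71, 7.95 and 7.58 untreated and 8.02, 7.91 and 8.06 with MEL. CALRins5 values were 7.86, 7.78 and 7.65 untreated and 8.23, 7.97 and 8.16 with MEL. The treatments overlapped in CALRdel52 cells by the untreated replicate 2. ATP6V0A1 rose by 0.28 (standard error 0.06, adjusted p = 0.00123), and its second probe set changed by −0.07 (adjusted p = 0.589).

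ATP6V0E1, a small membrane subunit, rose by 0.21 (standard error 0.04, adjusted p = 0.00158), with untreated arrays at 9.48 to 9.70 and MEL arrays at 9.61 to 9.90. Its brightest probe set is prone to cross-hybridisation. The brightest without that mark changed by −0.10 (adjusted p = 0.31), but its mean, 4.64, was near the median of all probe sets, 4.61. With the mark, 2 others were called higher (0.18, and 0.35 at a mean of 3.92). Another marked probe set, at a mean of 9.25, changed by −0.01 (adjusted p = 0.882). ATP6V0B, a subunit of the proteolipid ring, fell by 0.15 (standard error 0.06, adjusted p = 0.0415), and lost its call when any of 11 of the 18 arrays was left out. Over all 18 omissions the adjusted p ran from 0.0192 to 0.0881. ATP6V0D1, which joins the ring to the central stalk and has a CLEAR core 60 bases before its start, fell by 0.17 (standard error 0.05, adjusted p = 0.0129). With the GAPDH covariate none of the 4 V0 subunits was called, and their changes were 0.22, 0.15, −0.05 and −0.08 in the order of this account (adjusted p = 0.0687, 0.0827, 0.665 and 0.406).

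In V1, 4 of 7 subunits fell, none rose, and all 7 changes lay below 0, with a median of −0.15. All 7 have a mean over 8, a level at which 37.3% of genes were called lower and 18% higher. The count was 0 higher and 3 to 5 lower under each of the 12 alternative settings other than leaving out single arrays. ATP6V1C1, the subunit that clamps V1 to V0 when the pump assembles, read 9.52, 9.46 and 9.59 in untreated CALRwt arrays and 8.91, 8.93 and 8.88 with MEL. CALRdel52 values were 9.27, 9.27 and 9.49 untreated and 8.74, 9.0 and 8.63 with MEL. CALRins5 values were 9.46, 9.51 and 9.58 untreated and 8.55, 9.21 and 9.05 with MEL. All 9 MEL arrays were below all 9 untreated arrays, and CALRins5 MEL replicate 1 was again the lowest. ATP6V1C1 fell by 0.58 (standard error 0.08, adjusted p = 1.3e-05), to 0.667 times its untreated level. The 4 ATP6V1C1 probe sets were all called lower (−0.18 to −0.59). With the GAPDH covariate the change was −0.36 (adjusted p = 0.00134).

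ATP6V1D, part of the central stalk that turns in the pump, read 8.41, 8.45 and 8.45 in untreated CALRwt arrays and 7.80, 7.87 and 7.82 with MEL. CALRdel52 values were 8.09, 8.14 and 8.28 untreated and 7.88, 7.86 and 7.86 with MEL. CALRins5 values were 8.40, 8.48 and 8.68 untreated and 8.02, 7.89 and 7.95 with MEL. No MEL array reached the lowest untreated array, and untreated CALRdel52 arrays were the lowest of the untreated. ATP6V1D fell by 0.49 (standard error 0.05, adjusted p = 6.0e-07), which was the smallest adjusted p of the members, and 3 of its 4 probe sets were called lower. The change with the GAPDH covariate was −0.53 (adjusted p = 4.1e-05).

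ATP6V1H, a regulatory subunit needed for ATP hydrolysis in the assembled pump, read 9.30, 9.26 and 9.32 in untreated CALRwt arrays and 9.11, 9.06 and 9.0 with MEL. CALRdel52 values were 9.23, 9.33 and 9.17 untreated and 8.97, 9.01 and 8.93 with MEL. CALRins5 values were 9.51, 9.38 and 9.41 untreated and 9.15, 9.08 and 9.23 with MEL. In each vector all MEL arrays were lower. ATP6V1H fell by 0.26 (standard error 0.04, adjusted p = 1.6e-04). The dim further probe sets, neither called, changed by 0.16 and −0.12. ATP6V1H was not called as the mean of all its probe sets (−0.08, adjusted p = 0.254). Nor was it in its only probe set without a mark for cross-hybridisation (−0.12, adjusted p = 0.211). That probe set had a mean of 3.55, under the median of all probe sets, 4.61, so it may not detect the gene.

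ATP6V1A, the catalytic subunit, fell by 0.15 (standard error 0.05, adjusted p = 0.022), and the second ATP6V1A probe set fell by 0.80. ATP6V1A lost its call without CALRins5 untreated replicate 3 (adjusted p = 0.0512) and with the GAPDH covariate (−0.15, adjusted p = 0.143). ATP6V1B2 (the nucleotide-binding partner of the catalytic subunit, −0.10), ATP6V1E1 (peripheral stalk, −0.02) and ATP6V1G1 (peripheral stalk, with a CLEAR core, −0.12, adjusted p = 0.0515) did not pass. Of the 6 members with a CLEAR core, MCOLN1 and ATP6V0D1 were called, both lower. Of the 3 with an M-box, TPP1 and CD63 were called, both higher, but the mean of all TPP1 probe sets changed by 0.03. Of all genes 36.7% were called, 18.6% higher and 18.1% lower. At a mean of 8 or more 55.3% were called, 18% higher and 37.3% lower. The M-box members TPP1, CD63 and PPT1 lay at that level, with means of 9.54, 11.34 and 11.02. Of the CLEAR core members MCOLN1 and GAA lay under it, at 6.55 and 6. A link between motif and direction was not tested.

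**Figure D3:**
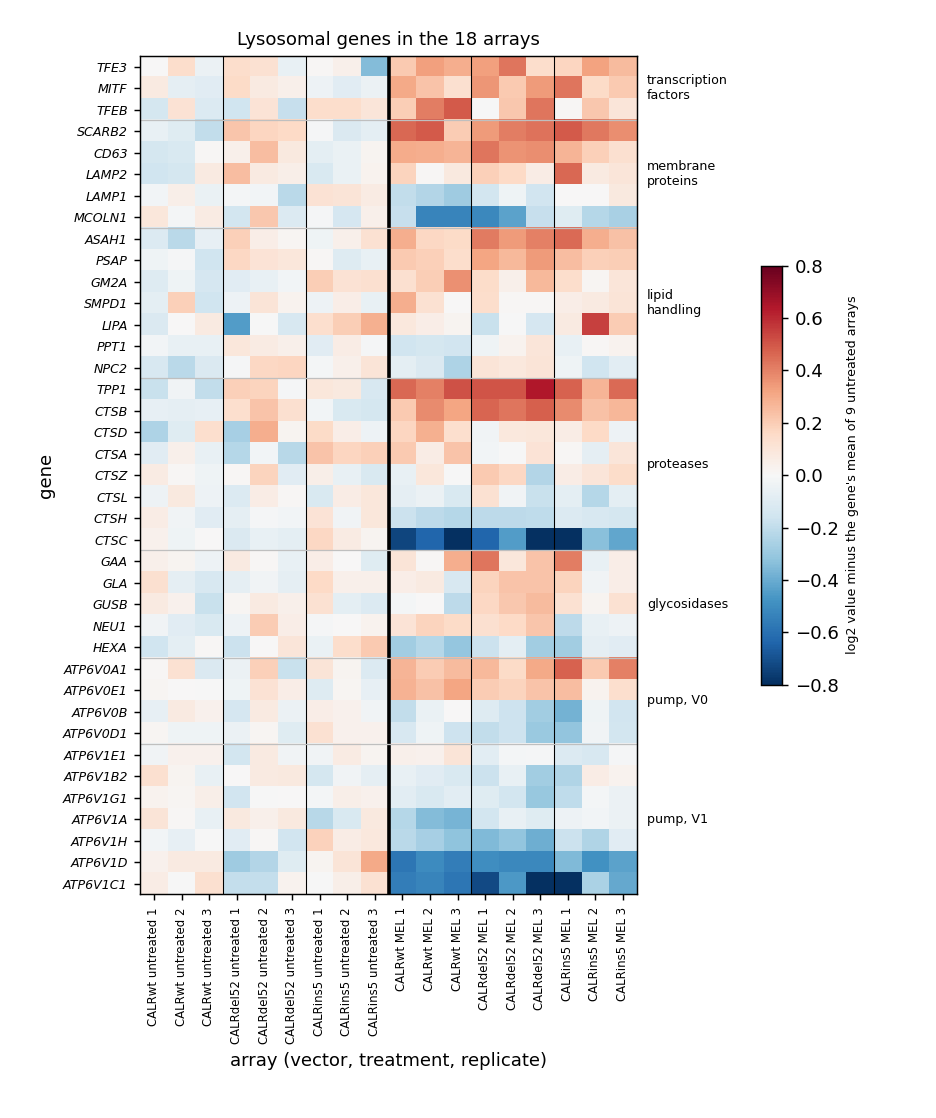
Log2 value minus the gene's mean over the 9 untreated arrays (colour, from −0.8 to 0.8) for the 39 lysosomal genes (rows) in the 18 arrays (columns, untreated left of the heavy line and MEL right of it). The rows of TPP1, SCARB2 and CTSB turn red and those of CTSC, ATP6V1D and ATP6V1C1 turn blue in the MEL columns of all 3 vectors.

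The size of the response was compared between probe sets, because 24 of the 39 genes were read by more than 1. Of the 17 called genes among them, 6 had all probe sets on the same side of 0, and 5 had a probe set called in the opposite direction (TFE3, ASAH1, GM2A, TPP1 and HEXA). Averaging every probe set of a gene gave 15 called members, 5 higher and 10 lower, of which 11 were among the 22 and 4 were not (LAMP1, LAMP2, GAA and ATP6V1G1). Taking the brightest probe set without a mark for cross-hybridisation gave 18, 9 higher and 9 lower, of which 17 were among the 22 and LAMP1 was not. The mark is a probe set name that ends in _x_at or _s_at, which the brightest probe sets of 17 members have. Members with marked probe sets only kept theirs. The calls of CD63, CTSB, CTSC, MCOLN1, ATP6V1C1 and ATP6V1D passed under all 12 alternative settings other than leaving out single arrays.

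**Figure D4:**
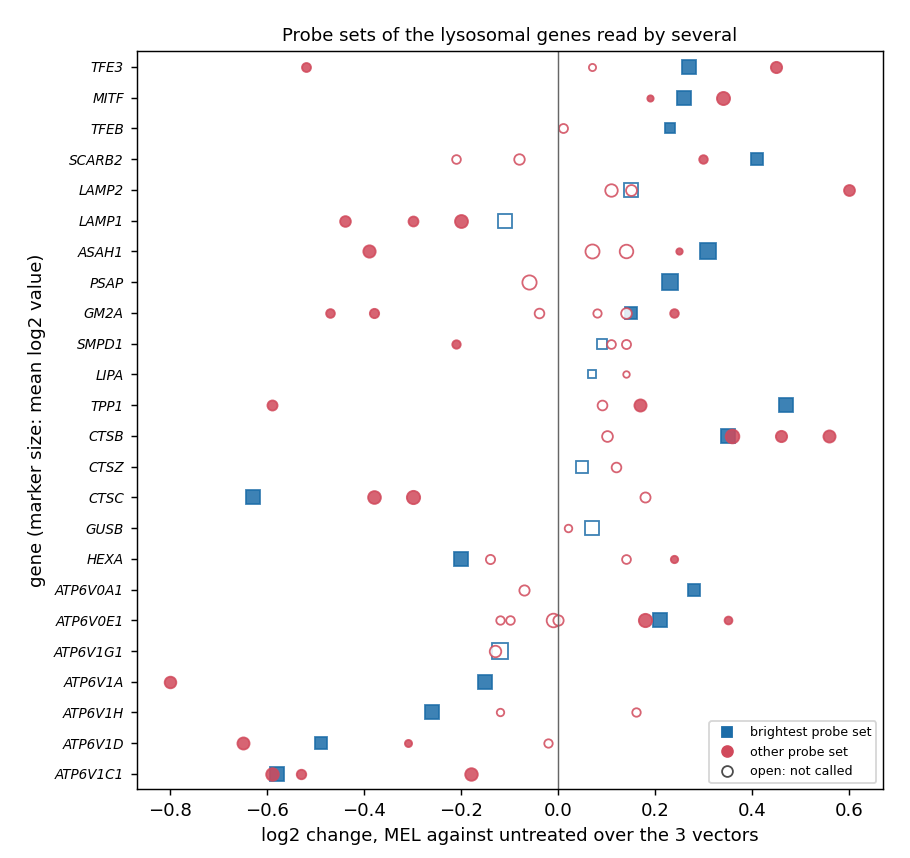
Log2 change with MEL over the 3 vectors (horizontal axis) of every probe set of the 24 genes read by several (vertical axis), with squares for the brightest, circles for the others, filled where called, and marker size for mean level. CTSB and ATP6V1C1 have no probe set on the other side of 0, whereas TPP1 ranges from −0.59 to 0.47.

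Within single vectors 15 of the 39 members were called in CALRwt cells, 9 higher and 6 lower. Of all probe sets 15.8% were called there, 6.64% higher and 9.12% lower. In CALRdel52 cells 8 of the 39 were called, 4 higher and 4 lower. Of all probe sets 12.2% were called there, 5% higher and 7.2% lower. In CALRins5 cells 12 of the 39 were called, 8 higher and 4 lower. Of all probe sets 10.1% were called there, 3.88% higher and 6.21% lower. Among genes with a mean of 8 or more the shares called were 31.8%, 21.8% and 22.4% in the same order. Called in each vector were CTSB, ASAH1 and TPP1, higher, and CTSC, ATP6V1C1, ATP6V1D and ATP6V1H, lower. These 7 members are 17.9% of the 39, where 5.60% of genes and 4.95% of all probe sets were called in each vector in 1 direction. For 5 members (12.8%) the 9 MEL and 9 untreated arrays did not overlap, TPP1 higher and CTSC, CTSH, ATP6V1C1 and ATP6V1D lower, against 8.88% of genes and 7.38% of all probe sets. The members in both counts all have a mean of 8 or more, and neither share was computed among genes at that level. Of the 22 members called over the vectors, 19 had the same sign in each vector, the exceptions being TFEB and GM2A, below 0 in CALRins5 cells, and ATP6V1A, above 0 there. Counts per vector rested on few arrays. CALRdel52 cells had 3 called members without MEL replicate 3, 4 without untreated replicate 3 and 5 without untreated replicate 2. CALRins5 cells had 5 without MEL replicate 1 and 5 without untreated replicate 3.

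The response to MEL did not differ detectably between vectors. No member was called in limma for mutated minus CALRwt (0% of all probe sets), where differences in response ran from −0.27 for TFEB to 0.27 for ATP6V1A and their 95% intervals from −0.57 to 0.50. At an unadjusted p under 0.05 there were 3 members (7.69%), ATP6V1A, GM2A and NEU1, against 4.8% of all probe sets. The smallest limma adjusted p of a member was 0.995. The pairwise differences gave 0 members for CALRdel52 minus CALRwt (0% of probe sets), 0 for CALRins5 minus CALRwt (0%) and 0 for CALRins5 minus CALRdel52 (0.0146%). At an unadjusted p under 0.05 there were 2, 5 and 5 members (5.13%, 12.8% and 12.8%), against 5.35%, 5.18% and 6.84% of all probe sets. The lowest value over these pairs was that of TFEB in CALRins5 minus CALRwt, −0.43, with an interval of −0.78 to −0.08 (adjusted p = 0.955). The linear model without moderation called 0 members after adjustment for mutated minus CALRwt.

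Between mutated and CALRwt cells, too, no lysosomal gene was called by limma. In untreated cells the differences ran from −0.09 for ATP6V1D to 0.23 for NPC2, the cholesterol carrier, with intervals from −0.27 to 0.39 over all 39 genes. NPC2 had the smallest adjusted p, 0.743, with group means of 8.81 ± 0.06 (SD, n = 3) for CALRwt, 9.07 ± 0.10 for CALRdel52 and 9.01 ± 0.06 for CALRins5. It was 1 of 4 members (10.3%) at an unadjusted p under 0.05, beside ASAH1, TPP1 (both 0.20) and SCARB2 (0.18). Of all probe sets 5.83% had such a p. For all probe sets the share called was 0%. CALRdel52 against CALRwt gave 0 members (0.0366% of probe sets). At an unadjusted p under 0.05 there were 8 members (20.5%), against 9.18% of all probe sets. Values ran from −0.27 for ATP6V1D to 0.31 for SCARB2 (limma adjusted p = 0.403 and 0.234). CALRins5 against CALRwt gave 0 members (0.00914% of probe sets), with values from −0.13 for TFE3 to 0.23 for GM2A. At an unadjusted p under 0.05 it gave 3 members (7.69%), against 6.1% of probe sets.

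With MEL the mutated against CALRwt differences ran from −0.20 for TFEB to 0.25 for ATP6V1A, with intervals from −0.42 to 0.40. No member was called (0.0494% of probe sets), and the smallest adjusted p was 0.43, for ATP6V1A. At an unadjusted p under 0.05 there were 5 members (12.8%), against 7.57% of all probe sets. Their log2 differences were 0.25 for ATP6V1A, 0.22 for GUSB, 0.20 for LAMP1, 0.16 for PPT1 and 0.15 for NPC2. ATP6V1A means with MEL were 9.92 ± 0.07 (SD, n = 3) for CALRwt, 10.14 ± 0.05 for CALRdel52 and 10.20 ± 0.02 for CALRins5. CALRdel52 against CALRwt gave 0 called members with MEL (0.0256% of probe sets), and CALRins5 against CALRwt gave 0 (0.0402%). At an unadjusted p under 0.05 there were 6 and 4 members (15.4% and 10.3%), against 8.4% and 7.04% of all probe sets. The linear model without moderation called 0 members after adjustment in each of these 6 comparisons. The 95% intervals of a mutated difference reached a median of 0.16 to either side in untreated and in MEL cells. For a typical member a smaller difference could thus not be told from 0. These intervals are not adjusted for the number of probe sets, so larger differences could also miss a call. An example is ATP6V1A with MEL, at 0.25 (limma adjusted p = 0.43).

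**Figure D5:**
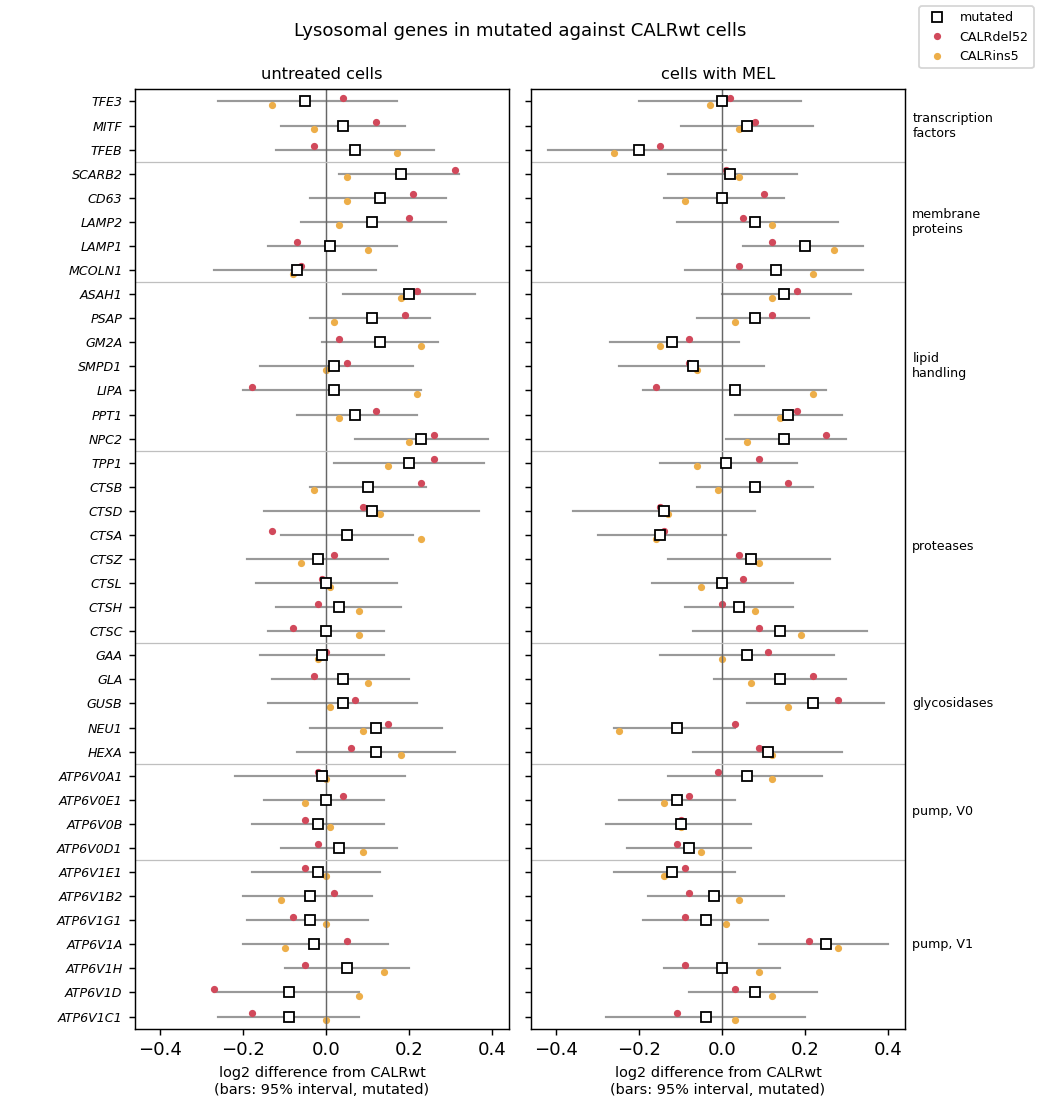
Log2 difference from CALRwt (horizontal axes) of the 39 lysosomal genes (vertical axis), in untreated cells (left) and cells with MEL (right). Squares are mutated cells with the 95% interval and dots are CALRdel52 and CALRins5. Squares run from −0.09 to 0.23 on the left and from −0.20 to 0.25 on the right, and no gene was called.

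Other genes of the pathway, taken from lists, were called with MEL over the 3 vectors as follows, beside 36.7% of all genes and 55.3% of genes with a mean of 8 or more. Among 24 other lysosomal hydrolases measured, 6 were higher and 1 lower, with a median of 0.05: IDS (iduronate sulfatase) rose by 0.64, IDUA (alpha-iduronidase) by 0.40 and PLBD2 by 0.39. Of 22 other membrane proteins and transporters, 6 were higher and 4 lower. SLC17A5, the sialic acid exporter, fell by 0.60, CTNS, the cystine exporter, rose by 0.45, and TMEM192 fell by 0.35. Of 12 other pump subunits, 2 were higher and 2 lower: ATP6V1E2 rose by 0.45, ATP6V0A2 fell by 0.39 and ATP6AP2, the pump-associated prorenin receptor, fell by 0.26.

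Genes of enzyme delivery to the lysosome split evenly, with 4 higher and 4 lower of 15. M6PR, the cation-dependent mannose 6-phosphate receptor that carries new hydrolases, fell by 0.65, GGA2, an adaptor for that receptor, rose by 0.58, and SUMF1, which activates sulfatases, fell by 0.37. Of 22 genes in the control of TFEB by mTORC1, 8 were higher and 4 lower. TSC1, a brake on mTORC1, rose by 0.56, LAMTOR3, part of the lysosomal scaffold for mTORC1, fell by 0.43, and RRAGA, a Rag GTPase of the same machinery, rose by 0.41. Of 24 autophagy genes, 14 were called, 6 higher and 8 lower, a share near that of genes with a mean of 8 or more. The cargo receptor SQSTM1 rose by 0.52, WIPI1, which acts in autophagosome formation, fell by 0.51, and STX17, which fuses autophagosomes with lysosomes, fell by 0.41. The medians of these 6 lists lay between −0.06 and 0.07, beside 0.04 for all probe sets.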

How the data were processed

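RNA from 18 samples of transduced K562 cells was hybridised to Affymetrix HG-U133 Plus 2.0 probe sets, whereas the methods name another array type. The authors deposited log2 values made by robust multiarray average (RMA: background correction, equalising of arrays, summary of probes) in Partek, per the labels, as a single value for each of 54675 probe sets on each array. The sources used here do not say which arrays were normalized together. The deposited log2 values were used unchanged, and all value columns were mapped to samples by their names. Groups and replicate numbers came from the labels. The untreated cells were cultured for 24 h or taken directly after sorting, depending on the source.

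Each comparison was fitted by lmFit and eBayes of limma 3.58.1 (R 4.3.3), and p-values were adjusted by Benjamini-Hochberg over all probe sets, with calls under 0.05. A model of 6 groups over 18 arrays was used, and comparisons of untreated cells used a model of 3 groups over 9 arrays. Gene names came from the probe table. Levels were not compared between genes, since a level also depends on the probes. Values in each array are given for the transcription factors and for the 6 called members with the largest increase and the 6 with the largest decrease. Up to 3 called genes are named from each other list. The members and lists were chosen with earlier results of these data known. The small number of arrays limits precision. Alternatives were the replicate block, repeated quantile normalization, median centring, probe sets above the median, moderation with a trend and robust options, an unmoderated linear model, unadjusted p under 0.01, other sets of arrays, leaving out arrays, the GAPDH covariate and other choices of probe set. Plots used matplotlib 3.10.9 (Python 3.11.15).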

Additional observations from a re-analysis of the deposited data

How the results depend on the processing

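Over the 3 vectors, 22 members were called with MEL, and 11 of 12 alternatives gave a count within 1.5 times, the exception being the GAPDH covariate with 14. Leaving out single arrays gave 21 to 25. In CALRwt cells the count of 15 became 10 to 13 without single arrays. In CALRdel52 cells the count of 8 became 3 to 6 without single arrays, 3 with the compared arrays only, 5 without both arrays that stood apart, 5 with the GAPDH covariate and 15 at an unadjusted p under 0.01 in the linear model. In CALRins5 cells the count of 12 became 5 to 10 without single arrays, 7 with arrays centred on their medians, 4 with the compared arrays only, 5 without both arrays that stood apart and 3 with the GAPDH covariate. The cause of these shifts was not tested, apart from the fewer arrays in some settings.

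At an unadjusted p under 0.01 the linear model without moderation gave 3 of the 39 members for mutated against CALRwt untreated. It gave 4 for CALRdel52 and 1 for CALRins5 against CALRwt untreated. With MEL the same comparisons gave 5, 5 and 4, and the response of mutated minus CALRwt gave 3. In limma that threshold gave 1, 2 and 1 untreated and 1, 2 and 3 with MEL. Of all probe sets 1.09% to 2.91% passed it in the linear model and 0.889% to 2.7% in limma over these 7 comparisons. All of these counts are 0 after adjustment, and were also 0 without any single array.

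HEXA (0.01) and GM2A (−0.04) changed sign as the mean of all probe sets, and ATP6V0E1 (−0.10) in its brightest probe set without cross-hybridisation. With the replicate number as a block 23 members were called, 13 higher and 10 lower. The numbers were not taken to pair the samples, as the sources used here do not say whether equal numbers share an experiment. Of 45 pairs of arrays with the same number, 16 had deviations that correlated above 0.1 (−0.22 to 0.23). That 15 of 18 arrays correlated best with an array of their own number is a hint from the data, not from the design. In all, 118 of 140 counts under other settings were within 1.5 times. Of 22 called members, 20 passed without any single array, the exceptions being ATP6V0B and ATP6V1A.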

Other observations

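The probe set that names both GLB1 and TMPPE had a mean of 9.24 over the 18 arrays and changed by 0.17 with MEL over the 3 vectors (standard error 0.05, limma adjusted p = 0.0122). It cannot be assigned to either gene from these data.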
